A study of Danio rerio with 40 samples.

Results

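Zebrafish that lack smad3a, smad3b, smad6a and smad6b were compared with wild-type controls in the pools of each genotype that held less nr1d1 RNA. These were 5 of the 40 samples in the series, namely quadruple-knockout (qKO) pools 3, 4 and 5 and control pools 1 and 2. They were chosen by their nr1d1 level, measured as CPM, the count of a gene scaled to a common library size, so that level and the levels of the other clock genes are given as a description without a test. Every pool held 5 whole embryos at 5 days post fertilization, grown at 27 °C. The qKO pools were homozygous for knockout alleles of all 4 genes, and the controls were wild-type cousins, so relatedness and genotype cannot be told apart. The labels do not give the lesions in the 4 genes. The study is about a zebrafish model of aortic disease related to Smad6 and about what loss of Smad3 does in it. RNA from whole embryos was sequenced from stranded total-RNA libraries, and the deposited table holds raw read counts per gene. The other 30 samples, from QuantSeq libraries, are not used here.

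Smad3 proteins carry the signal of receptors for transforming growth factor beta (TGF-beta) and activin into the nucleus. Smad6 proteins are intracellular inhibitors, mainly of bone morphogenetic protein (BMP) signalling, and their own transcription rises with BMP signalling. The gene nr1d1 encodes Rev-erb alpha, a nuclear receptor of the circadian clock that represses the activator genes of the bmal family and is itself switched on by them. Zebrafish larvae have such clocks in most tissues, and light sets their phase.

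The level of nr1d1 was 8.92 and 8.43 CPM in control 1 and 2 and 1.81, 1.59 and 2.62 CPM in qKO 3, 4 and 5. All 3 qKO pools lay below both controls, so the pools were alike within each genotype but not level between them. The next pools up, which were left out by the rule, held 42.1, 48 and 45.9 CPM in control 3, 4 and 5 and 334 and 352 CPM in qKO 1 and 2. Among clock genes, per1a, a period repressor, was at 4.49 and 3.32 CPM in controls and 1.54, 0.354 and 1.1 CPM in qKO pools. The mammalian counterpart of nr1d2b is a second Rev-erb, and nr1d2b was at 127 and 126 CPM in controls and 31.8, 37.2 and 60.8 CPM in qKO pools. Both genes were lower in all 3 qKO pools than in both controls. The activator gene arntl2 was at 12.1 and 13.8 CPM in controls and 35.3, 41.5 and 32.6 CPM in qKO pools, with every qKO pool above the controls. Other activator genes, named after their values were seen, lay the opposite way, arntl1b at 27.2 and 28.9 CPM in controls and 23.5, 22.8 and 23 CPM in qKO pools and npas2 at 20.4 and 23.5 CPM in controls and 17.8, 14.9 and 17.2 CPM in qKO pools, with every qKO pool below the controls. The activator gene arntl1a was above the controls in every qKO pool, at 33.6 and 38.9 CPM in controls and 48, 45.6 and 41.6 CPM in qKO pools. The clock genes per3, bhlhe40, nr1d4b and clockb, picked after their values were seen, did not all behave alike. The period gene per3 was at 134 and 137 CPM in controls and 10.19, 9.92 and 39.5 CPM in qKO pools. The repressor gene bhlhe40 was at 249.7 and 239 CPM in controls and 27.7, 20.7 and 68.5 CPM in qKO pools. In both, qKO 5 lay between the other qKO pools and the controls. The nuclear receptor gene nr1d4b was at 3.44 and 3.65 CPM in controls and 17.6, 18.9 and 8.11 CPM in qKO pools, and there too qKO 5 was nearest to the controls. The activator gene clockb overlapped between the genotypes, at 60.14 and 65.5 CPM in controls and 62.4, 54.3 and 55.3 CPM in qKO pools. The pools were thus alike in nr1d1 within each genotype and differed between the genotypes. All of them lay below 42.1 CPM, the lowest value among the pools left out, but they were not level with each other. The part that remaining clock differences play in the results below was not tested.

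**Figure D1:**
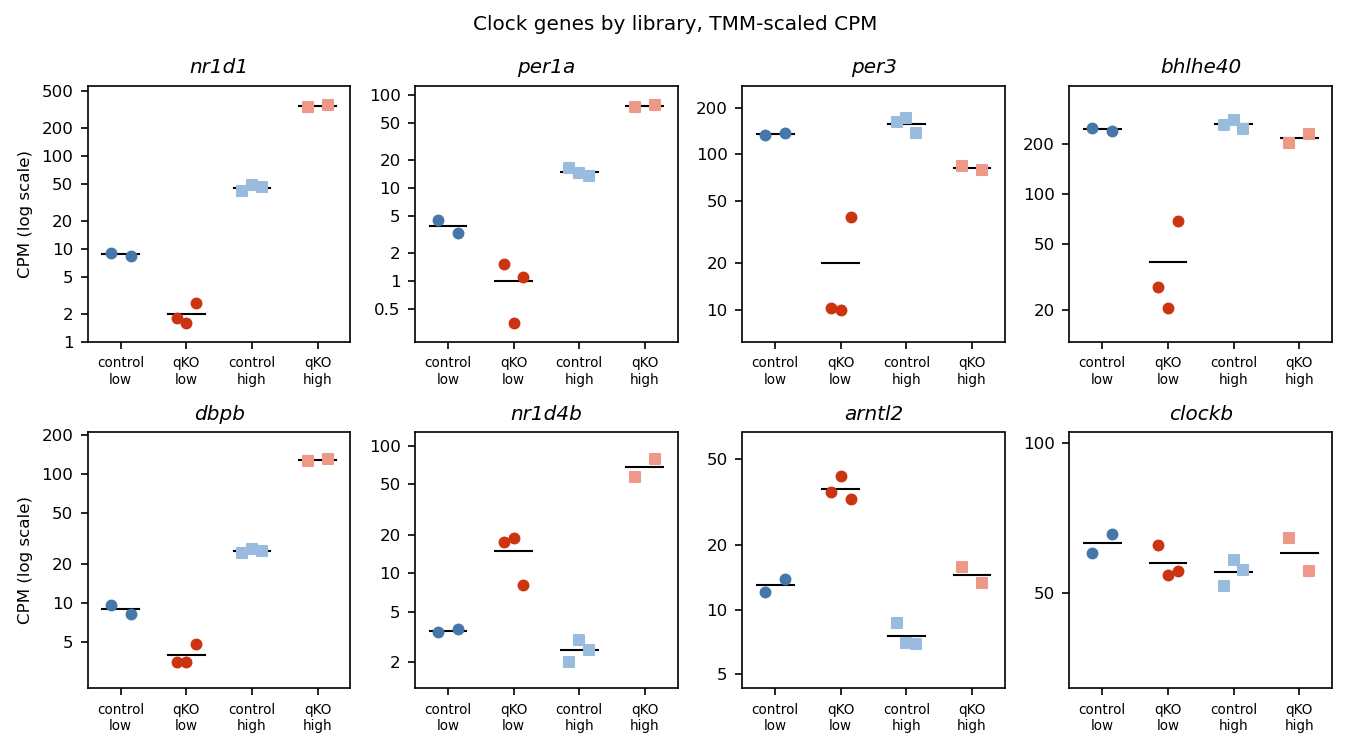
CPM of 8 clock genes by library on log axes, with 1 point per pool and a bar at the group mean; low and high name the pool sets by nr1d1. In the low set nr1d1 was 8.92 and 8.43 CPM in controls and 1.81 to 2.62 CPM in qKO pools, and qKO 5 sits above the other 2 low qKO pools in per3 and bhlhe40.

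Read totals of the 5 libraries ran from 16062147 in control 1 to 191289475 in qKO 5. The biological coefficient of variation between pools of a genotype was 11.9% in this fit. Spearman correlations were 0.994 between the controls, 0.991 to 0.994 between qKO pools, and 0.966 to 0.974 across genotypes. Mitochondrial genes took 3.84% and 4.22% of counts in controls and 4.61%, 3.89% and 4.34% in qKO 3, 4 and 5. The labels number the pools as biological replicates but do not say whether they came from separate crosses or clutches, so the p-values measure the spread between pools. Since the pools were picked to be alike in nr1d1, that spread does not hold the full range seen among pools of a genotype.

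Of 22395 genes tested, 7292 (32.6%) differed between qKO 3 to 5 and control 1 to 2 at an adjusted p under 0.05, by the quasi-likelihood F-test of edgeR, adjusted over all tested genes by the method of Benjamini and Hochberg. These were 3880 higher genes (17.3%) and 3412 lower genes (15.2%) in the knockout. Counts over all genes, here and below, include nr1d1 and other clock genes. The pools were chosen by nr1d1, so its own calls are no result. The median log2 fold change was 0.00 over all tested genes, and the median size among called genes was 0.55. A change of at least 1 on the log2 scale was reached by 1487 called genes (6.64%), of which 349 were higher and 1138 were lower. The larger changes were thus mostly falls. Libraries were scaled by TMM, which evens out differences in library composition. With library totals in place of TMM, 61.4% of called genes were higher, against 53.2% with TMM. CPM did not overlap between the genotypes for 13561 tested genes (60.6%), which is the background for the statements on overlap below. Named genes were mostly picked among called genes, and the largest changes also for no overlap. Their separation is therefore no added support. With 1 control left out the test called 3186 genes (without control 1) and 2608 genes (without control 2). The remaining control was then taken to vary as the qKO pools do. Calls were then fewer over all genes too, so the list counts given below without 1 control have a smaller background than 32.6%. Without qKO 3, 4 or 5 the test called 6993 of 21981, 5725 of 22929 or 7674 of 22030 genes. These are the background for list counts without those pools. In RNA of whole embryos, fewer cells of a type and less RNA per cell cannot be told apart.

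The 4 targeted genes went in opposite directions. The transducer gene smad3a was at 46 and 42.2 CPM in control 1 and 2 and 9.74, 8.81 and 11.3 CPM in qKO 3, 4 and 5. Its log2 fold change was -2.12 ± 0.11, adjusted p = 5.44e-06, where ± here and below gives the standard error. The paralogue smad3b was at 14.5 and 13.5 CPM in controls and 5.99, 6.68 and 6.01 CPM in qKO pools, with a log2 fold change of -1.17 ± 0.12, adjusted p = 0.000192. No qKO pool reached a control in either gene. The inhibitor gene smad6a was instead at 27.5 and 31.8 CPM in controls and 42, 42.2 and 42.6 CPM in qKO pools, a log2 fold change of 0.51 ± 0.09, adjusted p = 0.00229. Its paralogue smad6b was at 24.8 and 26.4 CPM in controls and 36, 42.2 and 40.6 CPM in qKO pools, and changed by 0.63 ± 0.10, adjusted p = 0.00127 on the log2 scale. Every qKO pool exceeded both controls in both smad6 genes. The gene counts show where transcript abundance changed, and do not show the mutations themselves. RNA remained from all 4 genes. In the libraries with high nr1d1, qKO 1 and 2 against control 3 to 5, the log2 fold changes were -1.67 for smad3a, -1.01 for smad3b and 0.61 for smad6b, all called. There smad6a changed by 0.18 (adjusted p = 0.195), and the difference from the low-nr1d1 pools was 0.30 (adjusted p = 0.132), which was not called.

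**Figure D2:**
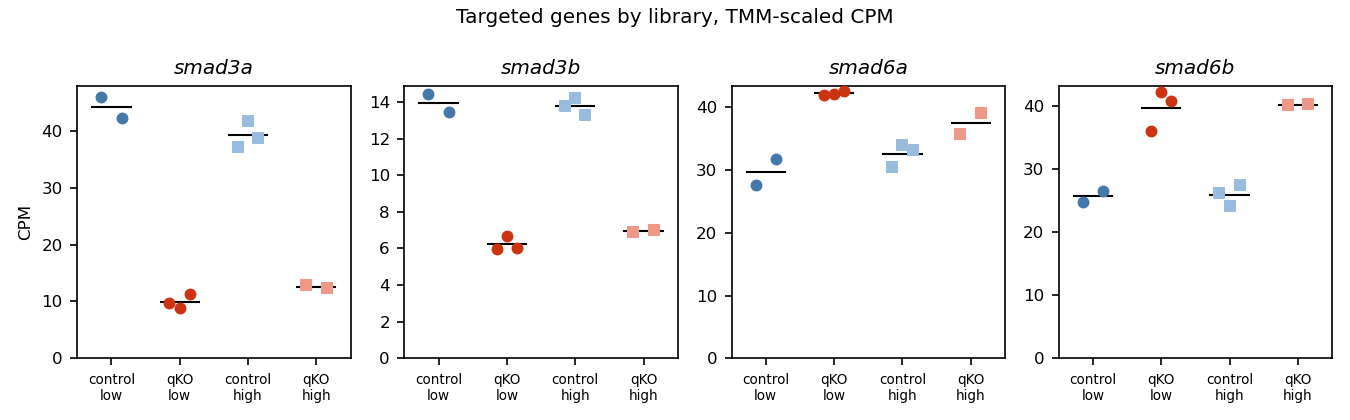
CPM of the targeted genes by library, with 1 point per pool and a bar at the group mean. Both smad3 genes are lower in every qKO pool than in every control, and smad6b is higher in every qKO pool, from 36 CPM in qKO 3 of the low-nr1d1 set.

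Of 27 tested ligand genes of the pathway, 2 were higher and 2 lower, and the median log2 fold change was -0.01. These calls made up 14.8% of the list, against 32.6% over all tested genes. The ligand gene bmp3 was at 21.5 and 22.6 CPM in controls and 15.3, 16.6 and 16 CPM in qKO pools (-0.47 ± 0.09, adjusted p = 0.00464), and tgfb3 was at 33.7 and 34.8 CPM in controls and 43.3, 47.9 and 45.6 CPM in qKO pools (0.41 ± 0.08, adjusted p = 0.00466). Neither overlapped between the genotypes. The gene bmp8a changed by -1.03 ± 0.31, adjusted p = 0.028 and gdf11 by 0.86 ± 0.28, adjusted p = 0.0384 on the log2 scale. All 4 calls were lost without 1 of the controls or both, with an adjusted p of 0.0724 for bmp3 without control 2 and 0.0547 for tgfb3 without control 1.

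Receptor genes gave 2 higher and 4 lower of 19 tested, with a median log2 fold change of -0.03. That is 31.6% of the list, near the 32.6% over all genes, and is no result about receptors as a group. The co-receptor gene tgfbr3, which encodes betaglycan, was at 13.3 and 17.7 CPM in control 1 and 2 and 7.19, 5.27 and 7.78 CPM in qKO 3, 4 and 5. It fell by 1.18 on the log2 scale (SE 0.18, adjusted p = 0.00143). The type II receptor gene bmpr2b was at 28.3 and 28.1 CPM in controls and 19, 22 and 23.5 CPM in qKO pools (-0.39 ± 0.10, adjusted p = 0.0186). Another type II receptor gene, acvr2ab, was at 18.3 and 19.7 CPM in controls and 13.5, 15.8 and 13.9 CPM in qKO pools (-0.41 ± 0.11, adjusted p = 0.0194). All 3 were lower in each qKO pool than in each control. The type I receptor gene tgfbr1a changed by -0.57 ± 0.17, adjusted p = 0.0319, and bmpr1ab by 0.29 ± 0.08, adjusted p = 0.0209. Of these, the change in tgfbr3 was the one that stayed called when either control was left out, and the list then gave 0 higher and 1 lower gene each time.

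Intracellular members other than the targeted genes gave 3 higher and 3 lower of 20, with a median of 0.02. That share of 30% is also near the 32.6% over all genes. The 3 higher genes were skilb and skila, which encode SnoN-type co-repressors of Smad proteins, and smurf2, a ubiquitin ligase gene of the pathway. The co-repressor gene skilb was at 9.78 and 11.2 CPM in controls and 17.6, 17.2 and 19.1 CPM in qKO pools, and rose by 0.77 ± 0.11, adjusted p = 0.000996 on the log2 scale. Its relative skila was at 17.2 and 18.8 CPM in controls and 23.2, 23.8 and 24.9 CPM in qKO pools (0.41 ± 0.09, adjusted p = 0.00867). The 3 lower genes included the ubiquitin ligase genes nedd4l, at 62 and 60.9 CPM in controls and 48.8, 49 and 49.6 CPM in qKO pools (-0.32 ± 0.07, adjusted p = 0.00741), and wwp1 (-0.37 ± 0.10, adjusted p = 0.0193). The remaining receptor Smads smad1, smad2, smad5 and smad9 did not pass the test, with log2 fold changes of 0.24, 0.04, 0.16 and -0.01. Without control 1 the call on skilb remained and the list gave 1 higher and 0 lower genes. Without control 2 it gave 3 higher and 0 lower genes.

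Secreted antagonists and latency proteins gave 6 higher and 1 lower of 22, with a median of 0.17. The called share was 31.8%, against 32.6% over all genes. The BMP antagonist gene nog2, a noggin, was at 14.1 and 13.4 CPM in control 1 and 2 and 21.5, 21.8 and 22.5 CPM in qKO 3, 4 and 5 (0.68 ± 0.09, adjusted p = 0.000777). The gene bmper, whose product binds BMPs outside the cell, was at 17.9 and 16.5 CPM in controls and 26.3, 31.8 and 29.5 CPM in qKO pools (0.76 ± 0.11, adjusted p = 0.00083). The gene fstl1b, which encodes a follistatin-like secreted protein, was at 187 and 193 CPM in controls and 301, 329 and 274 CPM in qKO pools (0.67 ± 0.10, adjusted p = 0.000888). In all 3 the qKO pools lay above both controls. The antagonist gene chrd, a chordin, rose by 0.49 ± 0.16, adjusted p = 0.0393, a call lost without either control. The lower gene was fstl3, whose product binds activins, at 24.8 and 26.6 CPM in controls and 16.8, 14.4 and 15.1 CPM in qKO pools (-0.73 ± 0.10, adjusted p = 0.000741). Without either control the list gave 3 higher and 1 lower gene, and with upper-quartile scaling 3 higher and 2 lower.

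Genes known as BMP targets gave 8 higher and 1 lower of 24 tested, with a median of 0.20, against a background of 17.3% higher and 15.2% lower. The called share in either direction was 37.5%, near the 32.6% over all genes. The homeobox gene msx1b was at 7.81 and 8.39 CPM in control 1 and 2 and 13.3, 14.1 and 13 CPM in qKO 3, 4 and 5 (0.73 ± 0.12, adjusted p = 0.00167). The gene id3, which encodes an inhibitor of basic helix-loop-helix factors, was at 30.1 and 33.2 CPM in controls and 43.8, 45.6 and 45 CPM in qKO pools (0.50 ± 0.08, adjusted p = 0.00182). Its relative id4 was at 24 and 26.6 CPM in controls and 35.3, 32.9 and 41.9 CPM in qKO pools (0.54 ± 0.11, adjusted p = 0.00548). In each of them every qKO pool exceeded both controls. The transcription factor gene atoh8 rose by 0.45 ± 0.09, adjusted p = 0.00562 and bambia, a gene of a BMP pseudoreceptor, by 0.41 ± 0.09, adjusted p = 0.00875. The best known member, id1, did not pass the test, at 224 and 230.2 CPM in controls and 218, 264 and 272 CPM in qKO pools (0.15 ± 0.10, adjusted p = 0.281). The lower gene was hamp, which encodes the liver hormone hepcidin, and it is described with the differences between pool sets. Fewer genes of the list were called without control 1 and without control 2, as was so over all genes. The calls on id3 and msx1b were kept in both.

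Genes known as TGF-beta targets gave 4 higher and 8 lower of 25, with a median of -0.10, and the called share was 48% against 32.6% over all genes. The fibronectin paralogues moved apart. The gene fn1a was at 148 and 145 CPM in control 1 and 2 and 211, 217 and 207 CPM in qKO 3, 4 and 5 (0.53 ± 0.07, adjusted p = 0.000724), and fn1b was at 668 and 697 CPM in controls and 485, 435 and 456 CPM in qKO pools (-0.57 ± 0.08, adjusted p = 0.000972). The cell-cycle inhibitor gene cdkn1a was at 6.58 and 4.43 CPM in controls and 14.1, 13.7 and 10.4 CPM in qKO pools and rose by 1.24 ± 0.21, adjusted p = 0.00294. The matrix gene postna, a periostin, was at 122 and 118 CPM in controls and 92.9, 87.3 and 81.9 CPM in qKO pools and fell by 0.45 (SE 0.08, adjusted p = 0.00233). None of the 4 overlapped between the genotypes. A gene singled out after its value was seen, junbb, which encodes an AP-1 transcription factor, was at 47.5 and 47.9 CPM in controls and 3.55, 8.14 and 7.98 CPM in qKO pools (-2.88 ± 0.40, adjusted p = 0.0108). The list gave 3 higher and 4 lower genes without control 1, and 4 and 5 without control 2.

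Elastic-fibre genes, which matter for the wall of large arteries, gave 5 higher and 4 lower of 24, with a median of 0.08. The called share was 37.5%, near the 32.6% over all genes, so the values below describe single genes. The gene emilin3a, of a family of elastin-associated glycoproteins, was at 6.58 and 7.14 CPM in control 1 and 2 and 21.5, 27.5 and 23.9 CPM in qKO 3, 4 and 5 (1.81 ± 0.14, adjusted p = 3.97e-05). Its relative emilin1a was at 25.2 and 26.6 CPM in controls and 38.3, 46.4 and 43.4 CPM in qKO pools (0.72 ± 0.10, adjusted p = 0.000823). The gene efemp2a, which encodes fibulin-4, an assembly factor of elastic fibres, was at 20.6 and 21.9 CPM in controls and 32.5, 40.2 and 37.1 CPM in qKO pools (0.78 ± 0.11, adjusted p = 0.00075). The microfibril gene mfap2 was also higher, by 0.59 ± 0.08, adjusted p = 0.0009, and in these 4 genes the genotypes did not overlap. The paralogue efemp2b, named after its values were seen, moved the opposite way to efemp2a, at 20.6 and 20.5 CPM in controls and 13.4, 14 and 13 CPM in qKO pools (-0.61 ± 0.10, adjusted p = 0.00152), also without overlap. The lysyl oxidase-like gene loxl3a, of a family that cross-links collagen and elastin, went the other way, at 8.06 and 8.19 CPM in controls and 3.74, 3.67 and 3.45 CPM in qKO pools (-1.17 ± 0.15, adjusted p = 0.000483). The calls on emilin3a, emilin1a, efemp2a, mfap2 and loxl3a were kept without control 1 and without control 2, while the list gave 5 higher and 2 lower genes without control 1 and 4 and 2 without control 2. The elastin gene elnb, named after its values were seen, did not pass the test at 47.8 and 31.7 CPM in controls and 28, 27 and 16.9 CPM in qKO pools (-0.73 ± 0.32, adjusted p = 0.162). In the high-nr1d1 pools elnb was at 18.4, 15.3 and 15.9 CPM in control 3 to 5 and 34.3 and 41.1 CPM in qKO 1 and 2, a log2 fold change of 1.17 (adjusted p = 4.42e-05), and the difference of -1.93 between the sets had an adjusted p of 0.0141.

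Collagen and matrix genes gave 6 higher and 6 lower of 39 (median 0.09), a called share of 30.8% against 32.6% over all genes. The keratan sulfate proteoglycan gene lum was at 80.6 and 78.9 CPM in controls and 109.7, 121 and 121 CPM in qKO pools (0.56 ± 0.08, adjusted p = 0.000754) and col8a1a, a short-chain collagen gene, at 27.5 and 24.7 CPM in controls and 36.5, 43.8 and 40.3 CPM in qKO pools (0.63 ± 0.10, adjusted p = 0.00174). Smooth-muscle genes gave 7 higher and 7 lower of 32 (median 0.04), a share of 43.8%. The calponin gene cnn1a was at 4.73 and 3.79 CPM in control 1 and 2 and 1.03, 0.487 and 0.843 CPM in qKO 3, 4 and 5 (-2.35 ± 0.29, adjusted p = 0.000413), and tagln, which encodes transgelin, was at 47.5 and 46.6 CPM in controls and 36.5, 33.2 and 36.5 CPM in qKO pools (-0.41 ± 0.08, adjusted p = 0.00393). The myosin light chain gene myl9b was instead higher, at 59.3 and 61.1 CPM in controls and 80.7, 80.7 and 88.1 CPM in qKO pools (0.47 ± 0.07, adjusted p = 0.00156). Each of these 3 separated the genotypes. Without 1 control the smooth-muscle list gave 3 higher and 3 lower genes (control 1) or 1 higher and 2 lower (control 2), and the matrix list 4 and 3 or 3 and 4.

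Endothelial genes gave 2 higher and 6 lower of 38 (median -0.03), a called share of 21.1% against 32.6% over all genes. The gene tek, which encodes the angiopoietin receptor Tie2, was at 7.99 and 8.9 CPM in controls and 5.32, 4.69 and 4.9 CPM in qKO pools (-0.76 ± 0.14, adjusted p = 0.00346). The flow-responsive transcription factor gene klf2a was at 62.2 and 76.4 CPM in controls and 46.3, 32.9 and 33.5 CPM in qKO pools (-0.88 ± 0.18, adjusted p = 0.0122). Both were lower in each qKO pool, and both calls were lost without control 2 (adjusted p of 0.0642 and 0.0883), the call on klf2a also without qKO 5. The whole endothelial list gave 0 higher and 2 lower genes without control 1, 0 and 0 without control 2, and 5 higher and 3 lower with library totals in place of TMM. Cardiac genes gave 5 higher and 5 lower of 34 (median 0.06), a share of 29.4% near that over all genes. The calcium pump paralogues split, with atp2a2a at 89.9 and 85.4 CPM in controls and 53.1, 49.3 and 54.5 CPM in qKO pools (-0.74 ± 0.07, adjusted p = 0.000151) and atp2a2b at 106 and 93.4 CPM in controls and 134, 143 and 154 CPM in qKO pools (0.53 ± 0.09, adjusted p = 0.00177). The heart and limb transcription factor gene hand2 was at 14.9 and 16.4 CPM in controls and 23.7, 25 and 27.3 CPM in qKO pools (0.69 ± 0.10, adjusted p = 0.00108). These 3 did not overlap between the genotypes, and without either control the cardiac list gave 3 higher and 3 lower genes.

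Proteasome genes rose as a group. Of 45 tested genes for subunits and factors of the constitutive proteasome, 40 were higher and 2 lower, and the median log2 fold change was 0.66. That is 93.3% called, against 32.6% over all genes. The regulatory-particle gene psmd8 was at 44.9 and 45.4 CPM in control 1 and 2 and 82.8, 80.9 and 96 CPM in qKO 3, 4 and 5 (0.94 ± 0.09, adjusted p = 0.000112). The genes psmc6 and psmc1a, for ATPases of the same particle, were at 60.02 and 63 CPM in controls and 107, 107 and 118 CPM in qKO pools (0.85 ± 0.08, adjusted p = 9.52e-05) and 53.6 and 51.4 CPM in controls and 88.5, 92.3 and 100.1 CPM in qKO pools (0.84 ± 0.08, adjusted p = 0.000116). The gene psmd11b was at 33.9 and 35 CPM in controls and 59.4, 64.5 and 68.3 CPM in qKO pools (0.90 ± 0.09, adjusted p = 0.000117). In each the lowest qKO pool lay well above the higher control. The lower genes were psme4a and nfe2l1a. In mammals the counterpart of nfe2l1a encodes a transcription factor that drives proteasome genes, and nfe2l1a was at 30.9 and 31.3 CPM in controls and 10.8, 8.85 and 10.5 CPM in qKO pools (-1.61 ± 0.10, adjusted p = 1.39e-05). Without control 1 and without control 2 the list still gave 37 higher and 2 lower genes.

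**Figure D3:**
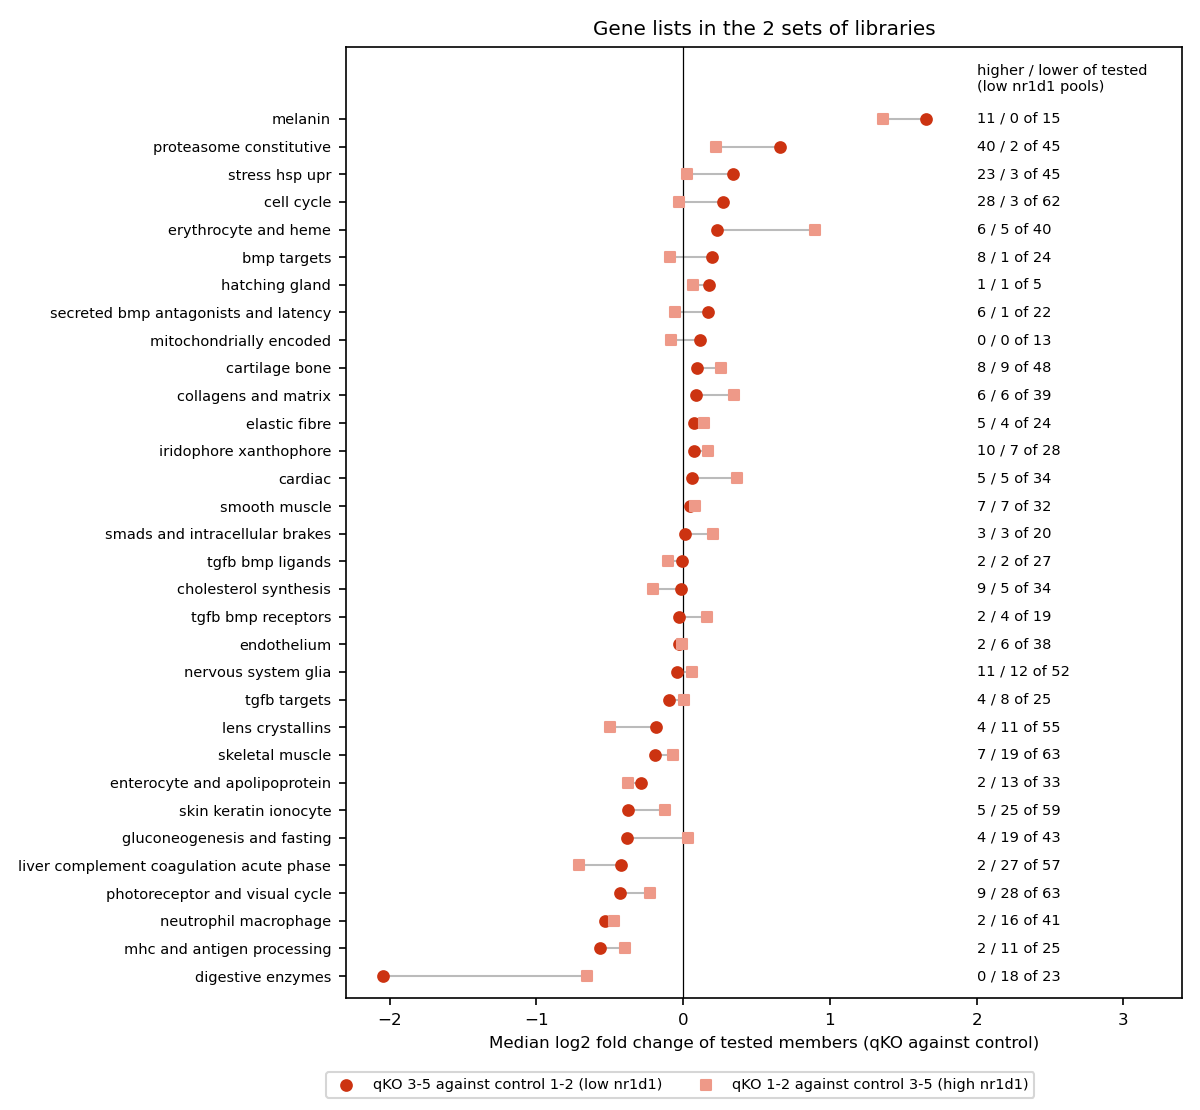
Median log2 fold change of the tested members of each gene list in the low-nr1d1 libraries (circles) and in the high-nr1d1 libraries (squares), with the counts of called members at the right. Proteasome, stress and cell-cycle lists lie further to the right in the low-nr1d1 set, and the digestive enzyme list lies at -2.05 against -0.65.

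Chaperone and unfolded-protein-response genes gave 23 higher and 3 lower of 45 (57.8%, against 32.6% over all genes), with a median of 0.34. The mitochondrial chaperone gene hspd1 was at 89.4 and 88.8 CPM in control 1 and 2 and 187, 193 and 201 CPM in qKO 3, 4 and 5 (1.12 ± 0.07, adjusted p = 1.50e-05). The endoplasmic reticulum chaperone gene hspa5, which encodes BiP, was at 192 and 193 CPM in controls and 316, 347 and 352 CPM in qKO pools (0.82 ± 0.08, adjusted p = 0.000153). Its co-chaperone gene hyou1 was at 51.3 and 47.5 CPM in controls and 85.6, 95.2 and 88.8 CPM in qKO pools (0.87 ± 0.08, adjusted p = 0.000118). All qKO pools exceeded both controls in these 3. The gene manf, whose product is secreted on stress of the endoplasmic reticulum, was at 10.3 and 12.3 CPM in controls and 23.6, 27.9 and 26 CPM in qKO pools (1.18 ± 0.12, adjusted p = 0.000157), and the cytosolic gene hspa4a at 56.8 and 55.3 CPM in controls and 89.7, 93.3 and 99.4 CPM in qKO pools (0.75 ± 0.08, adjusted p = 0.000157). The list gave 16 higher and 2 lower genes without control 1, and 13 and 1 without control 2.

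Cell-division genes gave 28 higher and 3 lower of 62 (50%, against 32.6% over all genes), with a median of 0.27. The 5 with the lowest p all act in mitosis. The ubiquitin-conjugating enzyme gene ube2c was at 14.8 and 17.3 CPM in control 1 and 2 and 33.3, 32.9 and 35.7 CPM in qKO 3, 4 and 5 (1.08 ± 0.10, adjusted p = 9.17e-05). The gene cdc20, an activator of the anaphase-promoting complex, was at 16.7 and 17.6 CPM in controls and 32.3, 35.2 and 37.9 CPM in qKO pools (1.03 ± 0.10, adjusted p = 0.000118). The mitotic cyclin gene ccnb1 was at 23 and 20.9 CPM in controls and 41, 41.7 and 50.4 CPM in qKO pools (1.03 ± 0.11, adjusted p = 0.000203). In these genes the qKO pools were high and did not overlap the controls. The kinase gene plk1 rose by 0.85 ± 0.09, adjusted p = 0.000162 and the spindle motor gene kif11 by 0.76 ± 0.08, adjusted p = 0.00021. Leaving out control 2 left 18 higher and 1 lower gene.

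Purine synthesis genes, which iridophore pigment cells use heavily and which stand in the list of iridophore and xanthophore genes, were among its rises. That list gave 10 higher and 7 lower of 28 (60.7%, against 32.6% over all genes), with a median of 0.07. The gene paics was at 74.8 and 81.1 CPM in control 1 and 2 and 219.8, 259.8 and 328 CPM in qKO 3, 4 and 5 (1.79 ± 0.17, adjusted p = 0.00064), gart at 16.2 and 16.8 CPM in controls and 27.2, 35.9 and 33.7 CPM in qKO pools (0.97 ± 0.13, adjusted p = 0.000635), and impdh1b at 53.2 and 57.3 CPM in controls and 94.9, 103 and 104 CPM in qKO pools (0.87 ± 0.08, adjusted p = 9.69e-05). All 3 encode enzymes of purine synthesis and separated the genotypes. The falls included csf1ra, a receptor gene of xanthophores and macrophages, at 18 and 23.8 CPM in controls and 5.81, 5.93 and 4.73 CPM in qKO pools (-1.95 ± 0.16, adjusted p = 5.27e-05). The carotenoid oxygenase gene bco1l was at 11.7 and 13.7 CPM in controls and 4.2, 3.14 and 5.17 CPM in qKO pools (-1.57 ± 0.19, adjusted p = 0.000383). The list gave 5 higher and 5 lower genes without control 1.

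Melanin genes gave 11 higher and 0 lower of 15 (73.3%, against 32.6% over all genes), with a median of 1.66. The transcription factor gene mitfa, which specifies melanophores, was at 0.922 and 1.02 CPM in control 1 and 2 and 2.93, 3.28 and 3.08 CPM in qKO 3, 4 and 5 (1.66 ± 0.24, adjusted p = 0.000945). The melanosome transporter genes oca2 and slc24a5 were at 1.41 and 1.73 CPM in controls and 3.74, 5.75 and 6.63 CPM in qKO pools (1.76 ± 0.29, adjusted p = 0.0021) and 0.676 and 0.778 CPM in controls and 2.38, 2.92 and 4.21 CPM in qKO pools (2.12 ± 0.34, adjusted p = 0.00149). The premelanosome gene pmelb was at 2.58 and 3.45 CPM in controls and 32.6, 58.9 and 71.6 CPM in qKO pools (4.13 ± 0.53, adjusted p = 0.0101). No qKO pool fell to a control value in these genes, and qKO 3 was the lowest qKO pool in each of oca2, slc24a5, pmelb and mitfa. The list gave 5 higher and 0 lower genes without either control. The adjusted p of pmelb was then 0.0612 (without control 1) and 0.0661 (without control 2).

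Digestive enzyme genes of the exocrine pancreas gave 0 higher and 18 lower of 23, with a median of -2.05. That is 78.3% called, against 32.6% over all genes. The elastase gene cela1.5 was at 12 and 18.1 CPM in control 1 and 2 and 2.88, 1.28 and 2.08 CPM in qKO 3, 4 and 5 (-2.80 ± 0.30, adjusted p = 0.00102). The trypsinogen gene prss1 was at 1169 and 1536 CPM in controls and 411, 249.8 and 345 CPM in qKO pools (-2.01 ± 0.23, adjusted p = 0.00257). The elastase gene ela2 was at 482 and 564 CPM in controls and 143, 85.4 and 118 CPM in qKO pools (-2.18 ± 0.22, adjusted p = 0.00178). The qKO pools were low in each, with qKO 4 the lowest. The gene ela2l changed by -2.23 ± 0.24, adjusted p = 0.00313 and cela1.6 by -2.14 ± 0.25, adjusted p = 0.00343, and both calls were lost without qKO 5. These paralogues are near in sequence, and the counting could divide their reads. Fewer members passed without 1 library, with 0 higher and 12 lower genes without control 1, 0 and 9 without control 2, and 0 and 6 without qKO 5. The median stayed between -2.25 and -1.80 with any library left out.

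Gut genes gave 2 higher and 13 lower of 33 in the list of enterocyte and apolipoprotein genes (median -0.29). Called genes made up 45.5% of the list, against 32.6% over all genes. The peptide transporter gene slc15a1b was at 54.3 and 57.3 CPM in control 1 and 2 and 14.8, 11.3 and 12.7 CPM in qKO 3, 4 and 5 (-2.10 ± 0.11, adjusted p = 5.44e-06). The chitinase genes chia.1 and chia.3 were at 91.9 and 77.8 CPM in controls and 16.9, 10.8 and 12.8 CPM in qKO pools (-2.63 ± 0.18, adjusted p = 0.000291) and 13.7 and 17.4 CPM in controls and 3.22, 1.73 and 2.27 CPM in qKO pools (-2.66 ± 0.22, adjusted p = 0.000128). The fatty-acid binding protein gene fabp2 was at 429 and 449 CPM in controls and 245, 184 and 226 CPM in qKO pools (-1.0 ± 0.11, adjusted p = 0.000294). Every qKO pool was below both controls in these 4 genes. The 2 higher genes were the apolipoprotein genes apoa1a and apoc2. They are named as the whole of that count, at 1131 and 1088 CPM in controls and 1695, 1987 and 2119 CPM in qKO pools (0.80 ± 0.11, adjusted p = 0.000744) and 282 and 281 CPM in controls and 372, 362 and 413 CPM in qKO pools (0.44 ± 0.08, adjusted p = 0.00345). The list gave 2 higher and 8 lower genes without control 1, and 1 higher and 8 lower without control 2.

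Liver genes for complement, coagulation and acute-phase proteins gave 2 higher and 27 lower of 57, with a median of -0.43. That is 50.9% called, against 32.6% over all genes. The gene ahsg1, a fetuin, was at 17.6 and 18.9 CPM in control 1 and 2 and 2.38, 2.66 and 2.55 CPM in qKO 3, 4 and 5 (-2.86 ± 0.13, adjusted p = 3.54e-06). The complement gene c3b.1 was at 47.8 and 53.6 CPM in controls and 22.4, 18.7 and 17.6 CPM in qKO pools (-1.37 ± 0.11, adjusted p = 6.15e-05). The protease inhibitor gene serpina1l was at 227 and 247 CPM in controls and 107, 95.1 and 116 CPM in qKO pools (-1.16 ± 0.09, adjusted p = 4.25e-05). The genotypes did not overlap in any of these. A related fetuin gene, fetub, was at 963 and 1068 CPM in controls and 492, 487 and 494 CPM in qKO pools (-1.05 ± 0.08, adjusted p = 5.04e-05), and cfd, which encodes complement factor D, at 76.1 and 76 CPM in controls and 37.6, 30.2 and 36.3 CPM in qKO pools (-1.12 ± 0.09, adjusted p = 6.15e-05). Without control 2 the list gave 1 higher and 12 lower genes.

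Genes of gluconeogenesis and fasting gave 4 higher and 19 lower of 43 (53.5%, against 32.6% over all genes), with a median of -0.38. The list holds the clock gene per1a, which is described above without a test, and without it the list gave 4 higher and 18 lower of 42 (median -0.38). The gene igfbp1b, which encodes a fasting-responsive binding protein of insulin-like growth factors, was at 9.47 and 8.7 CPM in control 1 and 2 and 1.81, 1.46 and 1.54 CPM in qKO 3, 4 and 5 (-2.49 ± 0.17, adjusted p = 2.32e-05). The fatty-acid-sensing receptor gene pparaa was at 15.9 and 13.4 CPM in controls and 6.37, 5.84 and 7.92 CPM in qKO pools (-1.10 ± 0.15, adjusted p = 0.000742). The gluconeogenic enzyme gene fbp1a was at 52.8 and 50.7 CPM in controls and 37.9, 32.2 and 35.8 CPM in qKO pools (-0.55 ± 0.09, adjusted p = 0.00147). All qKO pools were below both controls in these. The thioredoxin-interacting genes txnipa and txnipb changed by -0.84 ± 0.13, adjusted p = 0.00264 and -1.01 ± 0.13, adjusted p = 0.00109. The list with per1a gave 2 higher and 6 lower genes without control 1, and 0 and 9 without control 2. Sterol and fatty-acid synthesis genes gave 9 higher and 5 lower of 34 (41.2%, against 32.6% over all genes). Their median was -0.02, and 0.04 with library totals. The elongase gene elovl6 was at 28.6 and 28.4 CPM in controls and 43.2, 45.8 and 48.8 CPM in qKO pools (0.69 ± 0.08, adjusted p = 0.000389), and the isoprenoid genes idi1 and fdps rose by 0.68 ± 0.10, adjusted p = 0.000807 and 0.54 ± 0.09, adjusted p = 0.00187. That list gave 5 higher and 6 lower genes without control 1 and 5 and 1 without control 2.

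Photoreceptor and visual-cycle genes gave 9 higher and 28 lower of 63 (58.7%, against 32.6% over all genes), with a median of -0.43. The rod opsin gene rho was at 2305 and 2410.1 CPM in control 1 and 2 and 1122, 894 and 929.9 CPM in qKO 3, 4 and 5 (-1.26 ± 0.11, adjusted p = 7.46e-05). The rod disc gene rom1a was at 54.4 and 59.6 CPM in controls and 26.5, 25.7 and 25.7 CPM in qKO pools (-1.13 ± 0.08, adjusted p = 2.32e-05). The rod kinase gene grk1a was at 45 and 48 CPM in controls and 22.4, 22.8 and 24.2 CPM in qKO pools (-1.01 ± 0.08, adjusted p = 5.27e-05), and pde6b, of the phototransduction phosphodiesterase, was at 34.8 and 42.9 CPM in controls and 16.7, 13.7 and 17 CPM in qKO pools (-1.29 ± 0.12, adjusted p = 9.85e-05). All were lower in every qKO pool than in both controls. The isomerase gene rpe65a of the retinal pigment epithelium went the other way, at 3.94 and 6.19 CPM in controls and 33, 79 and 98.1 CPM in qKO pools (3.74 ± 0.73, adjusted p = 0.0344). The call on rpe65a was lost without control 1 or 2 or qKO 4 or 5 (adjusted p of 0.0982 to 0.137), and it kept its direction. The list gave 3 higher and 16 lower genes without control 2 and 15 higher and 27 lower without qKO 3.

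Lens genes gave 4 higher and 11 lower of 55 (median -0.19), a called share of 27.3% against 32.6% over all genes. The crystallin gene cryaa was at 42.6 and 53.5 CPM in controls and 24.8, 21.3 and 27.6 CPM in qKO pools (-0.96 ± 0.13, adjusted p = 0.000842) and the galectin-related lens gene grifin at 11.9 and 15.1 CPM in controls and 5.4, 3.98 and 5.44 CPM in qKO pools (-1.43 ± 0.16, adjusted p = 0.000294). The gamma-M crystallin gene crygm2d9 was higher, at 56.1 and 48.2 CPM in controls and 124, 152 and 117 CPM in qKO pools (1.33 ± 0.13, adjusted p = 0.000365). Each separated the genotypes, but the gamma-M crystallin genes are near-identical copies, so their reads may be divided among them. The test without qKO 5 called 7674 of 22030 genes over all, against 7292 of 22395 with all 5 libraries. Without qKO 5 the lens list gave 5 higher and 24 lower genes, and without control 2 it gave 3 and 4.

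Skin and ionocyte genes gave 5 higher and 25 lower of 59 (50.8%, against 32.6% over all genes), with a median of -0.38. The epithelial adhesion gene epcam was at 204 and 194 CPM in control 1 and 2 and 86.8, 78 and 83.7 CPM in qKO 3, 4 and 5 (-1.26 ± 0.07, adjusted p = 8.62e-06). The keratin gene krt91 was at 2246 and 2021 CPM in controls and 1018, 943 and 1009 CPM in qKO pools (-1.10 ± 0.09, adjusted p = 5.77e-05), and krt17 at 737 and 695 CPM in controls and 392, 301 and 315 CPM in qKO pools (-1.09 ± 0.11, adjusted p = 0.000203). The ionocyte sodium pump gene atp1a1a.3 was at 53.3 and 56.7 CPM in controls and 35.3, 36.3 and 32 CPM in qKO pools (-0.67 ± 0.09, adjusted p = 0.000533). In all 4 the qKO pools were low and clear of the controls. Without control 1 the list gave 1 higher and 14 lower genes, and without control 2 it gave 2 and 16.

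Skeletal muscle genes gave 7 higher and 19 lower of 63 (41.3%, against 32.6% over all genes), with a median of -0.19. The fast troponin gene tnnt3a was at 166 and 157 CPM in control 1 and 2 and 361, 370.4 and 414 CPM in qKO 3, 4 and 5 (1.24 ± 0.09, adjusted p = 2.32e-05). The calcium release channel gene ryr1b was at 348 and 301 CPM in controls and 183, 192 and 156 CPM in qKO pools (-0.87 ± 0.11, adjusted p = 0.000474). The giant sarcomere gene ttn.1 was at 2674 and 2367 CPM in controls and 1531, 1494 and 1113 CPM in qKO pools (-0.87 ± 0.14, adjusted p = 0.00253). These genes separated the genotypes in opposite directions. Fast-muscle genes actn3b and myhz1.1 changed by -0.54 ± 0.09, adjusted p = 0.00156 and -0.67 ± 0.11, adjusted p = 0.0016. The name smyhc2 stands for 2 entries of the table, and the one with the lower counts was at 2.52 and 4.43 CPM in controls and 0.0475, 0.133 and 0.0606 CPM in qKO pools (-5.73 ± 0.44, adjusted p = 4.28e-05). The other was at 208 and 196 CPM in controls and 179, 193 and 164 CPM in qKO pools. In qKO 3 and 4 the entry with the lower counts was near the level of 3 counts, 0.05 and 0.145 CPM. The size of its fall is therefore uncertain. Without either control the list gave 9 lower genes, with 3 higher without control 1 and 1 without control 2.

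Genes of macrophages and neutrophils gave 2 higher and 16 lower of 41 (43.9%, against 32.6% over all genes), with a median of -0.53. The perforin-like macrophage gene mpeg1.2 was at 30.8 and 32 CPM in control 1 and 2 and 18.4, 13.4 and 14.1 CPM in qKO 3, 4 and 5 (-1.03 ± 0.13, adjusted p = 0.000675). The leukocyte gene ptprc, which encodes CD45, was at 6.7 and 7.04 CPM in controls and 3.58, 3.45 and 3.4 CPM in qKO pools (-0.98 ± 0.15, adjusted p = 0.00142), and lcp1, an actin-bundling gene of leukocytes, at 25 and 23.5 CPM in controls and 15.5, 16.6 and 17.9 CPM in qKO pools (-0.53 ± 0.10, adjusted p = 0.00335). Each of these named falls was lower in every qKO pool. The CPM of the whole list summed to 1345.8 and 1346 in controls and 1036.7, 968.9 and 1393.2 in qKO pools. In that sum qKO 5 lay above both controls. Genes of antigen presentation gave 2 higher and 11 lower of 25 (median -0.57), a called share of 52%. The beta-2-microglobulin gene b2ml was at 150.2 and 151 CPM in controls and 98.6, 86.1 and 87.2 CPM in qKO pools (-0.73 ± 0.08, adjusted p = 0.000234). The class I genes mhc1zba and mhc1zca changed by -0.98 ± 0.14, adjusted p = 0.0024 and -0.90 ± 0.13, adjusted p = 0.00103. Class I genes differ between haplotypes, and their reads may be divided among copies. Without control 2 the leukocyte list gave 1 higher and 4 lower genes, and the antigen list 1 and 3.

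Erythrocyte and heme genes gave 6 higher and 5 lower of 40 (median 0.23), a called share of 27.5% against 32.6% over all genes. The heme synthesis genes urod, hmbsa and alad were higher. The gene urod was at 10.6 and 9.1 CPM in controls and 19.4, 16.1 and 16.5 CPM in qKO pools (0.83 ± 0.13, adjusted p = 0.00138), hmbsa at 10.5 and 11.1 CPM in controls and 17.3, 17 and 17.4 CPM in qKO pools (0.67 ± 0.10, adjusted p = 0.00122) and alad at 15.4 and 15.9 CPM in controls and 25.4, 22.3 and 23.5 CPM in qKO pools (0.61 ± 0.10, adjusted p = 0.00172). The membrane skeleton gene ank1a was lower, at 50.4 and 54.1 CPM in controls and 36, 37.8 and 32.1 CPM in qKO pools (-0.57 ± 0.09, adjusted p = 0.00179). Without qKO 5 the list gave 17 higher and 4 lower genes, and without control 2 it gave 5 and 1. Cartilage and bone genes gave 8 higher and 9 lower of 48 (median 0.09), a share of 35.4%. The bone matrix gene spp1, which encodes osteopontin, was at 21.6 and 20.6 CPM in control 1 and 2 and 5.91, 4.25 and 5.82 CPM in qKO 3, 4 and 5 (-1.95 ± 0.14, adjusted p = 2.75e-05). The mineralization gene scpp1 was at 8.36 and 10.22 CPM in controls and 2.58, 2.48 and 2.25 CPM in qKO pools (-1.95 ± 0.17, adjusted p = 6.90e-05). The cartilage link protein gene hapln1a was higher at 135 and 141 CPM in controls and 280.2, 294 and 242 CPM in qKO pools (0.98 ± 0.10, adjusted p = 0.000157). Each separated the genotypes. The skeletal list gave 5 higher and 3 lower genes without control 1, 2 and 2 without control 2, and 13 and 8 without qKO 5.

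Nervous system genes gave 11 higher and 12 lower of 52 (44.2%, against 32.6% over all genes). Their median was -0.04, and 0.01 with library totals. The myelin genes mbpa, mpz and plp1b were lower, with mbpa at 98.6 and 98.9 CPM in controls and 51.1, 41.7 and 45.4 CPM in qKO pools (-1.09 ± 0.09, adjusted p = 5.42e-05), mpz at 29.1 and 29.4 CPM in controls and 17.5, 16.7 and 15.4 CPM in qKO pools (-0.83 ± 0.09, adjusted p = 0.000294) and plp1b at 24.4 and 22.5 CPM in controls and 13.6, 10.4 and 12.1 CPM in qKO pools (-0.95 ± 0.12, adjusted p = 0.00046). The tubulin gene tubb5 and the axon growth gene gap43 were higher, at 241 and 239 CPM in controls and 443, 485 and 463 CPM in qKO pools (0.95 ± 0.08, adjusted p = 6.90e-05) and 49.7 and 49 CPM in controls and 80.8, 81.8 and 85.7 CPM in qKO pools (0.75 ± 0.07, adjusted p = 0.000125). None of the 5 overlapped between the genotypes. Without control 2 the list gave 6 higher and 3 lower genes. Of the 13 mitochondrially encoded genes 0 were called, and their median was 0.12. Hatching gland genes gave 1 higher and 1 lower of 5 (40%), which were cd63 and klf17. In that list he1.1, he1.2 and he1.3 were not tested, and these genes were named after their values were seen.

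The largest rises and falls over all genes included enzymes, transporters and plasma proteins. Among rises, fabp11b, of a fatty-acid binding protein, was at 0.123 and 0.372 CPM in control 1 and 2 and 6.92, 9.56 and 14.5 CPM in qKO 3, 4 and 5 (5.21 ± 0.58, adjusted p = 0.00182). The D-amino acid oxidase gene dao.1 was at 0.0615 and 0.135 CPM in controls and 4.9, 5.05 and 2.64 CPM in qKO pools (5.22 ± 0.55, adjusted p = 0.000301). The acyl-CoA thioesterase gene acot17 was at 0.553 and 0.135 CPM in controls and 6, 8.01 and 9.23 CPM in qKO pools (4.73 ± 0.43, adjusted p = 0.000228). The zinc transporter gene slc39a5 was at 0.738 and 0.643 CPM in controls and 6.83, 9.21 and 5.79 CPM in qKO pools (3.39 ± 0.29, adjusted p = 7.16e-05). The qKO pools were several times above the controls in each. An intelectin, listed as ITLN1 (1 of many), was at 1.97 and 0.778 CPM in controls and 18, 14.3 and 17.3 CPM in qKO pools (3.74 ± 0.30, adjusted p = 0.000228). The gene listed as RNPS1 was at 0 and 0.135 CPM in controls and 6.5, 3.41 and 4.28 CPM in qKO pools (5.76 ± 0.61, adjusted p = 0.000407). In control 1 and 2, 3 counts stood for 0.187 and 0.104 CPM. In control 1 fabp11b, dao.1 and RNPS1 were below that level, and in control 2 dao.1, acot17 and RNPS1 were near it. The sizes of these rises are therefore uncertain. The class I gene mhc1uma had no read in either control and was at 1.46, 2.21 and 1.33 CPM in the qKO pools, at least 12.2-fold higher than the limit of 3 counts per control. That bound uses CPM without TMM scaling. The gene tm6sf2 rose by 3.16 ± 0.52, adjusted p = 0.0109, a call lost without either control.

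Among falls, the uridine phosphorylase gene upp2 was at 3.26 and 5.48 CPM in control 1 and 2 and 0.0317, 0 and 0.0303 CPM in qKO 3, 4 and 5 (-7.23 ± 0.45, adjusted p = 1.16e-05). The hemopexin gene hpxa, whose product binds free heme in plasma, was at 30.1 and 42.4 CPM in controls and 0.444, 0.797 and 0.212 CPM in qKO pools (-6.72 ± 0.44, adjusted p = 0.000766). The cerebellin-family gene cbln8 was at 4.18 and 5.08 CPM in controls and 0.127, 0 and 0.0151 CPM in qKO pools (-6.73 ± 0.62, adjusted p = 0.000228), and clca1 at 8.3 and 9.41 CPM in controls and 0.333, 0.221 and 0.267 CPM in qKO pools (-4.97 ± 0.23, adjusted p = 3.54e-06). In the qKO pools 3 counts stood for 0.0157 to 0.145 CPM, and upp2 and cbln8 were near or below that level there. The gene serpina7, whose mammalian counterpart encodes a thyroxine-binding plasma protein, was at 6.76 and 7.61 CPM in controls and 0.539, 0.443 and 0.368 CPM in qKO pools (-4.04 ± 0.24, adjusted p = 9.50e-06). The cytochrome P450 gene cyp2ad2 was at 83.2 and 89.8 CPM in controls and 6.78, 2.57 and 6 CPM in qKO pools (-3.99 ± 0.36, adjusted p = 0.00363). The acute-phase gene crp2 was at 103 and 120.1 CPM in controls and 8.71, 3.41 and 2.4 CPM in qKO pools (-4.54 ± 0.69, adjusted p = 0.0204), ctsbb, of a cathepsin B, at 27.4 and 26.4 CPM in controls and 2.28, 1.51 and 0.525 CPM in qKO pools (-4.39 ± 0.69, adjusted p = 0.0182), and the glutamate transporter gene slc1a8b at 10.21 and 9.98 CPM in controls and 0.444, 0.0443 and 1.12 CPM in qKO pools (-3.85 ± 0.67, adjusted p = 0.0161). Those 3 calls were lost without control 1 or 2 (adjusted p of 0.0674 to 0.0844), and those on crp2 and ctsbb also without qKO 4. Of all called genes, 54 had 3 counts or fewer in every library of a genotype, 31 of them in the controls and 23 in the knockouts. That limit stood for 0.187 and 0.104 CPM in control 1 and 2. It had to be met by 2 control libraries or by 3 qKO libraries, so the 31 and the 23 cannot be compared. The share over all tested genes is not given.

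The same genotypes were measured in the 5 libraries with high nr1d1, qKO 1 and 2 against control 3, 4 and 5, which share no library with the comparison above. There 4751 of 23315 tested genes (20.4%) were called, 2289 higher (9.82%) and 2462 lower (10.6%). The share of higher genes among these was 48.2%, and 67.8% with library totals. Without control 5 this set gave 2527 called genes. Among 22354 genes tested in both, 2034 (9.1%) were called in both in the same direction, 834 higher and 1200 lower. They made up 27.9% of the genes called in the low-nr1d1 pools and 43.8% of those called in the high-nr1d1 pools. Of these 2034 genes, 1828 had CPM that separated all 10 libraries by genotype. They were selected as called in both sets, and the share over all tested genes is not given. The count therefore adds no support. Opposite calls were given to 193 genes (0.863%), nr1d1 and other clock genes among them. Across all genes the log2 fold changes of both sets had a Pearson correlation of 0.599 and a Spearman correlation of 0.412, which describes genes that are not independent of each other. The same sign was found for 75.8% of the genes called in the low-nr1d1 pools and for 63% of all genes.

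**Figure D4:**
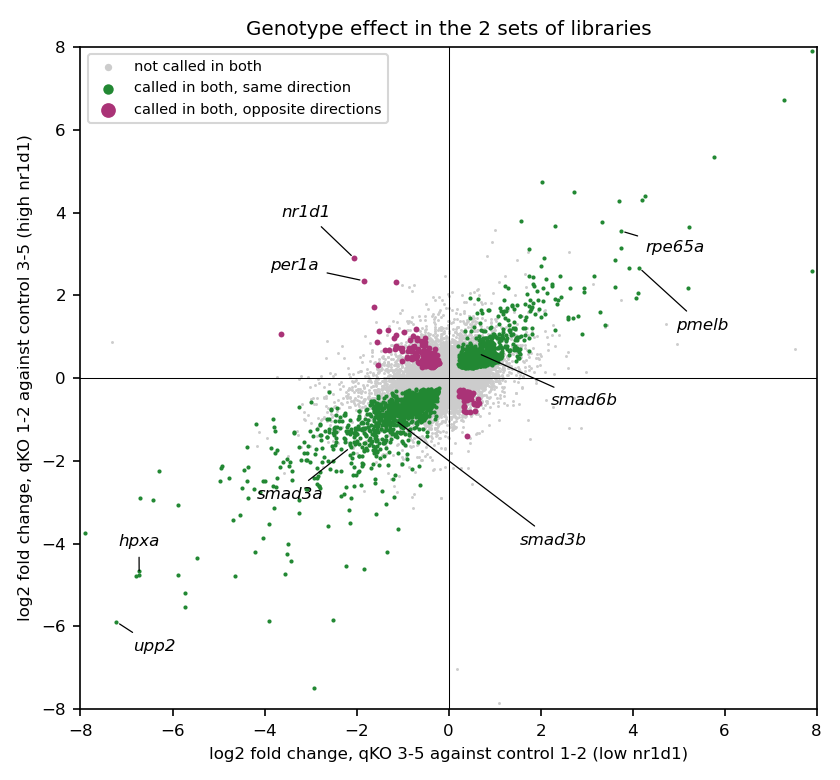
Log2 fold change of qKO against control in the low-nr1d1 libraries (horizontal) and in the high-nr1d1 libraries (vertical), with 1 point per gene tested in both. Green marks the 2034 genes called in both with the same direction and purple the 193 genes with opposite calls; genes beyond 8 on either axis are not shown.

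A test of the difference between the 2 sets, in 1 fit of all 10 libraries, called 2332 of 23754 genes (9.82%). The genotype effect was higher in the low-nr1d1 pools for 890 and lower for 1442. The latter include other clock genes and nr1d1, whose outcome was set by the choice of pools. Higher and lower effects, here and below, compare signed log2 fold changes. A higher effect can thus be a larger rise or a smaller fall, and a lower effect a smaller rise or a larger fall. Of the 7292 genes called in the low-nr1d1 pools, 1635 (22.4%) were called in this test. Leaving out 1 library left 559 called differences without control 2, 670 without control 1, 1104 without control 5, 1229 without qKO 1 and 1542 without control 3. Over all genes tested in the high-nr1d1 pools, 9.82% were higher and 10.6% lower. Proteasome genes were 10 higher and 2 lower of 45 there (median 0.22). By the test, 11 of them had a higher effect and 1 a lower effect in the low-nr1d1 pools. For psmd8 the high-nr1d1 pools were at 64.8, 51 and 56.2 CPM in control 3 to 5 and 70.12 and 75.5 CPM in qKO 1 and 2, with a log2 fold change of 0.32 and a difference of 0.59 (adjusted p = 0.0249). Cell-division genes gave 3 higher and 2 lower of 62 in the high-nr1d1 pools (median -0.03). For them 11 differences were called, all with a higher effect in the low-nr1d1 pools. The gene cdc20 was at 21.1, 18.3 and 19.4 CPM in control 3 to 5 and 19.4 and 23 CPM in qKO 1 and 2 there, with a difference of 0.91 (adjusted p = 0.00409). There qKO 1 lay within the range of controls 3 to 5 and qKO 2 above it. Chaperone genes gave 7 higher and 7 lower of 45 (median 0.02), with 10 differences higher and 3 lower in the low-nr1d1 pools.

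Further lists were compared in the same way, against 9.82% higher and 10.6% lower over all genes tested in the high-nr1d1 pools. Melanin genes were 11 higher and 0 lower of 15 in both sets (median 1.37 in the high-nr1d1 pools). The difference was called for 1 gene, kita. Digestive enzyme genes were 0 higher and 5 lower of 25 in the high-nr1d1 pools (median -0.65), near the 20.4% called over all genes there. The difference was called for 1 gene, prss59.2. In that set ela2 was at 637, 549.9 and 424 CPM in control 3 to 5 and 213 and 583 CPM in qKO 1 and 2, so that qKO 2 lay within the range of the controls and qKO 1 below it. Liver genes were 1 higher and 45 lower of 58 (median -0.71, against -0.43 in the low-nr1d1 pools). For them 14 differences were called, 12 with a higher and 2 with a lower effect in the low-nr1d1 pools. Lens genes were 2 higher and 30 lower of 55 in the high-nr1d1 pools (median -0.50, against -0.19 in the low-nr1d1 pools). The difference was called for 1 of them, with a higher effect in the low-nr1d1 pools. Heme and erythrocyte genes were 27 higher and 2 lower of 40 (median 0.90) with 8 differences, all with a lower effect in the low-nr1d1 pools. Collagen and matrix genes were 22 higher and 2 lower of 39 in the high-nr1d1 pools (median 0.35), where 9.82% of all genes were higher. The difference was called for 9 of them, with a lower effect in the low-nr1d1 pools for 8 and a higher effect for 1, lum. Cardiac genes were 14 higher and 1 lower of 34 there (median 0.37), and 8 differences were called, all with a lower effect in the low-nr1d1 pools. The cardiac genes with opposite calls were ryr2b and mef2ca. Other lists held opposite calls too, with 3 for chaperone genes, 3 in the fasting list with per1a and 2 for heme genes. The skin list held 2, and the receptor, liver, skeletal muscle and nervous system lists held 1 each. Over all genes 0.863% had opposite calls. In the low- and the high-nr1d1 pools ryr2b changed by -0.59 and 0.81, and mef2ca by -0.27 and 0.42, on the log2 scale. The fasting list without per1a was 5 higher and 9 lower of 44 (median 0.03), with 13 differences, all with a lower effect in the low-nr1d1 pools. For ttn.1 the high-nr1d1 controls were at 1489.6, 1614 and 1674 CPM, against 2674 and 2367 CPM in control 1 and 2, while qKO 1 and 2 were at 1746 and 1448 CPM. For ttn.1 the high-nr1d1 controls thus lay below control 1 and 2 and overlapped qKO 1 and 2, and whether the gene follows the clock was not tested.

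Receptor genes were 7 higher and 1 lower of 19 in the high-nr1d1 pools, where 9.82% of all genes were higher and 10.6% lower. Among them 5 differences were called, all with a lower effect in the low-nr1d1 pools. For bmpr2b the calls were opposite, with 14.4, 13.8 and 12.5 CPM in control 3 to 5 and 22 and 19.1 CPM in qKO 1 and 2 there and a difference of -0.99 (adjusted p = 0.00319). The gene tgfbr3 was at 7.86, 6.68 and 6.66 CPM in control 3 to 5 and 9.86 and 8.14 CPM in qKO 1 and 2, with a difference of -1.52 (adjusted p = 0.00324), and controls 3 to 5 lay below control 1 and 2. TGF-beta targets were 6 higher and 2 lower of 25 in the high-nr1d1 pools, with 6 differences, all with a lower effect in the low-nr1d1 pools. BMP targets were 5 higher and 3 lower of 24 in the high-nr1d1 pools. The difference was called for 3 of them, all with a higher effect in the low-nr1d1 pools. Among these was msx1b at 0.86 (adjusted p = 0.00831), while id3 at 0.08 (adjusted p = 0.697) was not called. In hamp the fall was smaller in the low-nr1d1 pools, at 9.65 and 7.01 CPM in controls and 2.04, 2.52 and 4.8 CPM in qKO pools (-1.34 ± 0.39, adjusted p = 0.0457), than in the high-nr1d1 pools at 9.68, 12.2 and 12.4 CPM in control 3 to 5 and 0.835 and 0.525 CPM in qKO 1 and 2 (-4.21), a difference of 2.86 (adjusted p = 0.0185). The difference was not called without control 2, qKO 1 or qKO 2. The call on hamp in the low-nr1d1 pools was lost without control 1, control 2 or qKO 4.

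**Figure D5:**
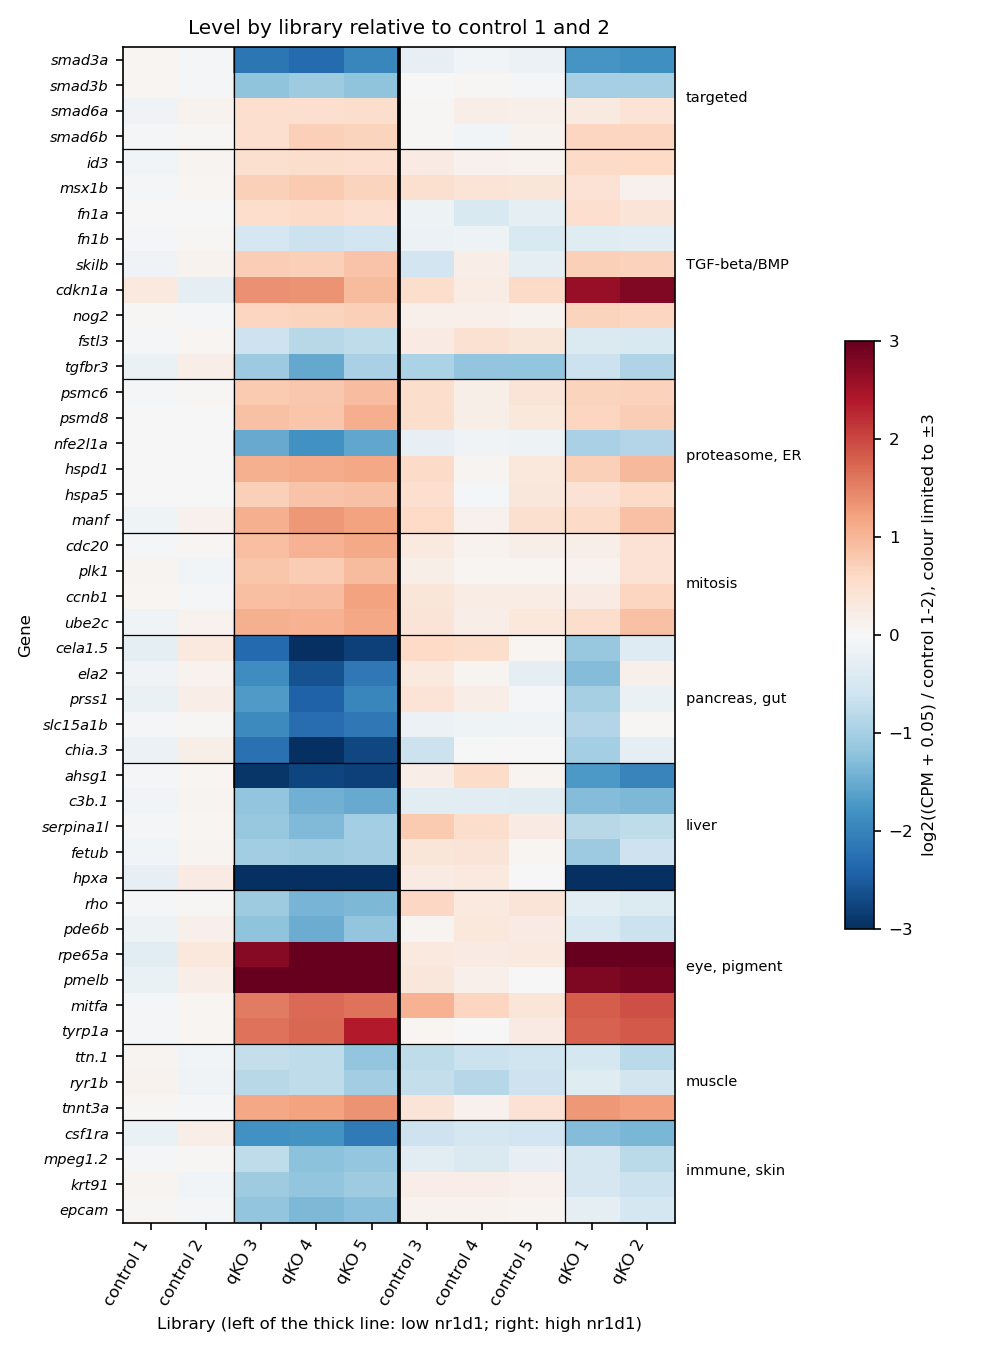
Level of selected genes in each library relative to the mean of control 1 and 2, as log2 of CPM plus 0.05, with colours limited to 3 in either direction. Columns left of the thick line are the low-nr1d1 libraries; falls of hpxa and smad3a and rises of pmelb and rpe65a recur in qKO 1 and 2, while cdc20 and plk1 are nearer to the controls there.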

How the data were processed

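The deposited table holds raw read counts per gene for 10 libraries, and the authors made it with Trim Galore 0.6.6 and featureCounts of Subread 2.0.0 on GRCz11, per the submitters' processing notes. The aligner and the use of strand in counting are not given in the sources used here, so overlapping genes may share reads. Counts were fitted with edgeR 4.0.16 in R 4.3.3 (filterByExpr, TMM, robust quasi-likelihood, two-sided, Benjamini-Hochberg adjustment over all tested genes, threshold 0.05). The 5 low-nr1d1 libraries, the 5 high-nr1d1 libraries and the 4 groups together were fitted separately. Errors after ± are standard errors of the log2 fold change. CPM are TMM-scaled over 10 libraries, and values are in the order of the pools' numbers. The fit was tested on simulated data. These were drawn from the fitted model with few genes changed, so that test does not check the scaling where many genes differ. Members and gene lists were chosen with earlier results of these data known. Some genes, such as skila, skilb, tagln and ttn.1, stand in more than 1 list, so the list counts are not of separate genes. Named genes were the targeted genes, the 10 largest rises and falls with at least 1 CPM and no overlap, and the called genes of lowest p in each list. Cardiac genes called in opposite directions by the 2 sets were all named too, and for other lists such genes are counted. The genes smad1, smad2, smad5, smad9, id1, apoa1a, apoc2, psme4a, kita and prss59.2, and those said so in the text, were chosen after their values were seen. Where 2 entries share a name (ank1a, cela1.5, clca1, crp2, ITLN1, myhz1.1, smyhc2, ube2c), values are of the entry that the rule named. Alternatives were other scalings, filters, tests (DESeq2 1.42.0, limma 3.58.1), thinning, and each library left out.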

Additional observations from a re-analysis of the deposited data

Results flagged for a closer look

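The genotype effect differed between the low-nr1d1 and the high-nr1d1 pools for 2332 genes, clock genes included, in edgeR's quasi-likelihood test of the difference itself. Genes that the report names or counts singly and that were among them are given with the difference, low-nr1d1 log2 fold change minus high-nr1d1 log2 fold change. The sign does not give the size of the effect, since a smaller fall also counts as higher. Clock genes are left out of the genes given, since the pools were chosen by nr1d1. No explanation was weighed.

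The effect was higher in the low-nr1d1 pools for genes of mitosis, the proteasome, purine synthesis and others, namely fabp11b (3.01), slc39a5 (2.08), msx1b (0.86), bmper (0.58), lum (0.53), hspd1 (0.60), manf (0.85), elovl6 (0.62), impdh1b (0.62), gart (0.73), paics (1.52), ube2c (0.66), cdc20 (0.91), plk1 (0.66), ccnb1 (0.83), kif11 (0.47), tubb5 (0.64), gap43 (0.44), psmc6 (0.52), psmd8 (0.59), psmc1a (0.49), apoa1a (1.19) and hamp (2.86). The effect was lower in the low-nr1d1 pools for hpxa (-2.01), ctsbb (-2.80), serpina7 (-1.60), cyp2ad2 (-1.51), fn1b (-0.49), cdkn1a (-1.02), tgfbr3 (-1.52), bmpr2b (-0.99), acvr2ab (-0.69), nedd4l (-0.43), ttn.1 (-0.87), slc15a1b (-1.91), chia.3 (-2.25), ank1a (-0.94), rom1a (-0.48), ahsg1 (-0.71), igfbp1b (-1.14), txnipa (-0.71), csf1ra (-1.19), ryr1b (-1.14), actn3b (-0.44), myhz1.1 (-0.69), mpeg1.2 (-0.71), ptprc (-0.73), b2ml (-0.52), epcam (-0.76), elnb (-1.93), junbb (-2.27), kita (-0.55), prss59.2 (-1.07) and nfe2l1a (-0.85). It was also lower in the low-nr1d1 pools for ryr2b (-1.43) and mef2ca (-0.72). Values for single pools were not tested for outliers, since no group here held 4 pools.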

How the results depend on the processing

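With an adjusted p under 0.01 in place of 0.05, edgeR called 3654 genes in the low-nr1d1 pools, 1994 in the high-nr1d1 pools and 463 differences, against 7292, 4751 and 2332. With 1 library left out the counts ran from 2608 to 7674, from 2527 to 4184 and from 559 to 2668. In the low-nr1d1 pools the remaining scalings, filters and tests (DESeq2, limma-voom, thinning, the fit of all 10 libraries) gave 6223 to 8022. No paired analysis was possible because the pools compared, control 1 and 2 and qKO 3, 4 and 5, share no replicate number. Of 191 named genes tested, 53 lost their call under at least 1 alternative, the stricter threshold included, and 0 reversed. Of 10 large differences between the pool sets checked in the same way, 6 lost their call and 0 reversed. The other single-gene differences were not all checked in this way. Most of these losses came when 1 control was left out. The cause was not tested. The depth of 16062147 reads in control 1 limits genes of low count.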
